A study of Mus musculus with 6 samples.

Results

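Thrombospondins and other matricellular proteins are secreted proteins that sit in the extracellular matrix and act mainly on how cells adhere, migrate and receive growth factors. The 10 genes described here are the thrombospondin genes Thbs1, Thbs2, Thbs3 and Thbs4, the tenascin C gene Tnc, the fibronectin gene Fn1, the periostin gene Postn, Sparc, the related gene Sparcl1 and the versican gene Vcan. They were chosen by gene symbol among probe sets that name exactly 1 gene, with 1 probe set per gene. All 10 were found, each had a single such probe set on the array, and together they are 10 of 19937 genes measured. The tumors came from 4T1 cells, a mouse mammary carcinoma line, of which 750000 were injected into a mammary gland of Balb/C mice. Treatment by mouth began on day 7 and was given daily for 14 days, with water for one group and TKI258 at 40 mg/kg for the other. TKI258 (dovitinib) is an inhibitor of receptor tyrosine kinases, including the receptors of FGF, VEGF and PDGF. Total RNA of each whole tumor was hybridized to 1 Affymetrix mouse array, so the groups hold 3 water tumors and 3 TKI258 tumors, labelled as biological replicates.

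Thrombospondin 1 and thrombospondin 2 are trimers best known as endogenous inhibitors of blood vessel growth, acting through the receptors CD36 and CD47. Fibronectin, tenascin C and periostin are made largely by fibroblasts and by some tumor cells and are typical of tumor stroma and healing wounds. SPARC and SPARC-like 1 bind collagen, and versican is a large chondroitin sulfate proteoglycan that binds hyaluronan. The comparison asked whether transcript levels in the tumors differed after treatment. Signals from a whole tumor combine tumor cells, stroma, vessels and blood cells, so fewer cells of a type and less RNA per cell cannot be told apart.

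In none of the 10 genes did the difference between TKI258 and water tumors pass the test. For 9 of them it was smaller than the larger SD within a group, and for Sparc it was about as large (-0.068 against an SD of 0.066). Of these genes, 5 had a higher and 5 a lower mean in TKI258 tumors, and their median log2 difference (TKI258 minus water) was -0.0020, against 0.023 over all genes. In limma's test with Benjamini-Hochberg adjustment over all 34760 probe sets, 0 of 10 passed an adjusted p of 0.05, where 0.00% of all probe sets did. The adjusted limma p of the 10 ran from 0.700 for Vcan to 1.00 for Thbs4. At an unadjusted limma p under 0.05 the count was also 0 of 10, against 7.14% of all genes and 8.06% of all probe sets (2803). The tumors of the groups overlapped for every one of the 10 genes, while they did not overlap for 15.1% of all genes. The 95% interval of each difference stayed within a log2 difference of 1 in either direction, which is a 2-fold change, for all 10 genes. It stayed within 0.5 for 4 of them, Thbs3, Thbs4, Fn1 and Sparc.

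**Figure D1:**
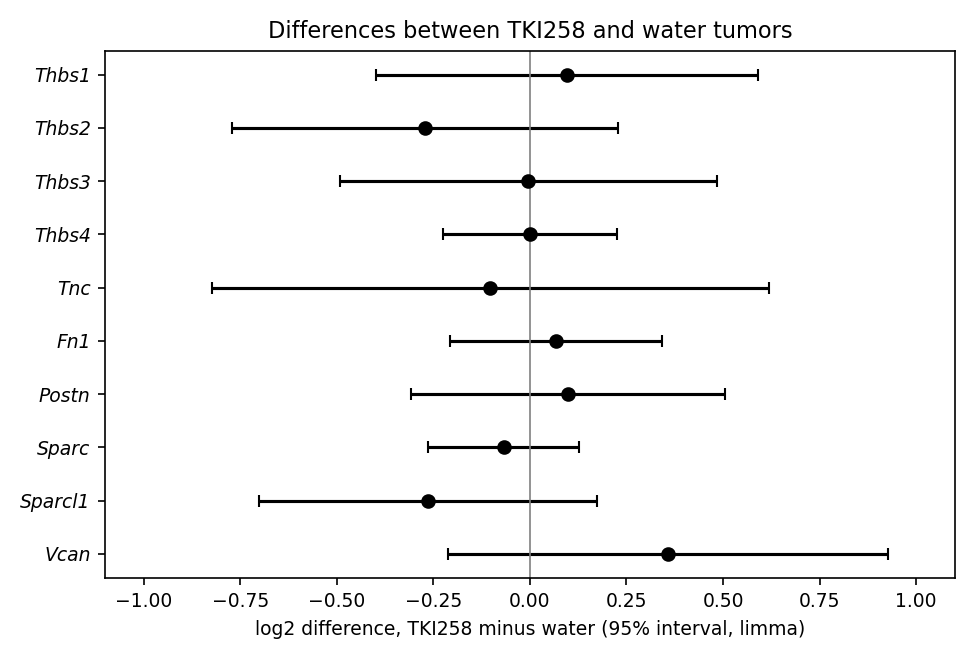
Log2 difference in signal (TKI258 minus water, x axis) for each of the 10 genes, with the 95% interval from limma over 3 tumors a group. Every interval includes 0, the narrowest is that of Sparc (-0.26 to 0.13) and the widest that of Tnc (-0.82 to 0.62).

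Thbs2, Tnc and Postn each had the highest value of all 6 tumors in water replicate 3. Sharing a highest tumor was not particular to them, as Thbs1, Sparc and Sparcl1 were each highest in water replicate 2. Thbs2, Tnc and Postn were grouped after their values were seen. Their upstream sequences are shown, from RefSeq (build GRCm38.p6), as the 250 bases before an annotated start on the strand of the gene. Capitals mark the letters TATAAA, the core sequence of the TATA box, or their reverse complement TTTATA, anywhere in the window. The letters alone do not make a match a TATA box.
Thbs2, chr17:14694263-14694512, minus strand: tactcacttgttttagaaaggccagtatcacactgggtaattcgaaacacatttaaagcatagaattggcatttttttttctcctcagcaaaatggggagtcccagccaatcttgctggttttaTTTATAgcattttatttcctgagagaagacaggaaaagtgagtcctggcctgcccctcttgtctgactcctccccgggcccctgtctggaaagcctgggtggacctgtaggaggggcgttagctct
Tnc, chr4:64047016-64047265, minus strand, the upstream of 2 listed starts: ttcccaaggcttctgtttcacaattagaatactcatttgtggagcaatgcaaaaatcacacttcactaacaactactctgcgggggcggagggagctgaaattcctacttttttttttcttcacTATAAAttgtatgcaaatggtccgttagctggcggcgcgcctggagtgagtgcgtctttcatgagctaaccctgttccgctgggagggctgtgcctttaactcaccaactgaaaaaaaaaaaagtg
Postn, chr3:54360857-54361106, plus strand, the downstream of 2 listed starts: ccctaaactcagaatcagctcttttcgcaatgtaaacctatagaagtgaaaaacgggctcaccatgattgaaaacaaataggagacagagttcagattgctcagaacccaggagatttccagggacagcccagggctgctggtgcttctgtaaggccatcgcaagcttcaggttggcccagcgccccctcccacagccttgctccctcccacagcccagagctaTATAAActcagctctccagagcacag
The match begins at position -126 from the start in Thbs2 and Tnc and at -26 in Postn. For Tnc and Postn the start shown was chosen with the matches known. From the downstream start of Tnc the same match lies at -205, and the 250 bases before the upstream start of Postn hold none. Nearer the downstream start of Tnc, its window holds the letters tatataag, which differ from TATAAA and were not counted. Windows were listed for 7 of the 10 genes (not Thbs1, Fn1 or Sparcl1), and a match was present in these 3 of the 7 and in 14.3% of 27025 genes with a listed window, with either strand and any listed start counted. The other motifs searched on both strands were CCAAT (in Thbs2, Thbs3 and Vcan, and in 37.5% of all genes), CATTCC, bound by TEAD factors (in Thbs4, and in 14.4%) and TGANTCA, bound by AP-1 (in 0 of the 7, and in 7.82%). No match of TATAAA in the 3 printed windows overlapped a match of another motif. Of the motifs searched, the marked one was found in exactly these 3 of the 7 genes. The 3 were grouped after their values were seen, so this coincidence is no finding. Any link to their values was not tested. These matches describe the letters of the windows only.

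Among the thrombospondins that form trimers, Thbs1 stood at 10.94, 11.59 and 11.05 in water replicates 1, 2 and 3 and at 11.52, 11.35 and 11.01 in TKI258 replicates 1, 2 and 3 (log2 signal, as for all levels below). Its highest value was in a water tumor, each group held both high and low tumors, and the lowest values were close, at 10.94 and 11.01. The difference was 0.10 ± 0.21 (log2 difference ± SE, 3 tumors a group), with a 95% interval of -0.40 to 0.59 and a limma adjusted p of 0.902. Thbs2 stood at 9.14, 9.13 and 9.82 in the water tumors and at 9.31, 8.99 and 8.97 in the TKI258 tumors. Water replicate 3 stood apart, and the other 5 tumors lay between 8.97 and 9.31. The difference was -0.27 ± 0.21 (interval -0.77 to 0.23, limma adjusted p 0.731), and it was -0.04 without water replicate 3 and -0.39 without water replicate 2.

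Thbs3 and Thbs4 encode thrombospondins that form pentamers, found mainly in skeletal and muscle tissue. Thbs3 stood at 7.58, 7.84 and 7.50 in water tumors and at 7.98, 7.71 and 7.21 in TKI258 tumors. The TKI258 group held both the highest and the lowest value, and the group means were 7.64 and 7.63. The interval of its difference was -0.49 to 0.48 (limma adjusted p 0.997). Thbs4 stood at 5.60, 5.44 and 5.58 in water and at 5.53, 5.45 and 5.64 in TKI258 tumors, a range of 0.20 over all 6. All these values lay below the median of every array (6.38 to 6.44), while the other 9 genes had means above the median probe set. Its group means were both 5.54. The direction of the Thbs3 difference turned with quantile normalization, and that of Thbs4 with quantile normalization and with median centring.

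Tnc had the widest spread. It stood at 9.71, 9.12 and 10.28 in water tumors and at 9.94, 9.33 and 9.53 in TKI258 tumors. The highest and the lowest tumor were both in the water group, a 2.23-fold range, and all TKI258 tumors lay between them. The group values were 9.70 ± 0.58 for water and 9.60 ± 0.31 for TKI258 (SD, n = 3), with a difference of -0.10 ± 0.30 and a limma adjusted p of 0.933. It was 0.18 without water replicate 3 and -0.39 without water replicate 2, and it was 0.032 without TKI258 replicate 2, so its direction turned with single tumors of either group.

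Fn1 had a mean above 99.9% of all probe sets and differed little between tumors. It stood at 12.92, 12.86 and 12.72 in water and at 13.03, 12.96 and 12.71 in TKI258 tumors. TKI258 replicates 1 and 2 were the highest of the 6 and TKI258 replicate 3 was the lowest. The difference was 0.07 ± 0.12 (interval -0.21 to 0.34, limma adjusted p 0.874), so a rise beyond 1.27-fold lies outside the interval. With single tumors left out it ranged from 0.0027 without TKI258 replicate 1 to 0.16 without TKI258 replicate 3, where both remaining TKI258 tumors were above every water tumor.

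Postn stood at 10.36, 10.34 and 10.93 in water tumors and at 10.59, 10.63 and 10.70 in TKI258 tumors. The TKI258 tumors were close together (10.64 ± 0.05, SD, n = 3) and lay between water replicates 1 and 2 below and water replicate 3 above. The difference was 0.10 ± 0.17 (interval -0.31 to 0.50, limma adjusted p 0.877). Without water replicate 3 it was 0.29, and without water replicate 2 it was -0.01.

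Sparc was the steadiest gene of the group. It stood at 11.68, 11.73 and 11.64 in water and at 11.68, 11.54 and 11.61 in TKI258 tumors, a range of 0.18 over all 6. Its SD within groups exceeded that of 6.47% of the genes with a mean signal of at least 7. The difference was -0.07 ± 0.08 (limma adjusted p 0.817), and its interval, -0.26 to 0.13, allows a level at most 1.20-fold lower. Sparcl1, which is abundant in vessel walls, stood at 9.75, 9.76 and 9.23 in water and at 9.39, 9.07 and 9.49 in TKI258 tumors. Water replicates 1 and 2 were the highest, and water replicate 3 was below 2 of the TKI258 tumors. The difference was -0.26 ± 0.18 (interval -0.70 to 0.17, limma adjusted p 0.707). It was -0.44 without water replicate 3, where the tumors no longer overlapped, and -0.17 without water replicate 2.

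Vcan had the largest difference of the 10. It stood at 7.80, 7.16 and 8.09 in water tumors and at 8.14, 8.14 and 7.83 in TKI258 tumors. TKI258 replicates 1 and 2 were the highest and water replicate 2 was far below the rest, while water replicate 3 lay above TKI258 replicate 3. The difference was 0.36 ± 0.24 (interval -0.21 to 0.93, limma adjusted p 0.700), a 1.28-fold higher mean with TKI258. It rested on single water tumors: it was 0.10 without water replicate 2 and 0.56 without water replicate 3.

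**Figure D2:**
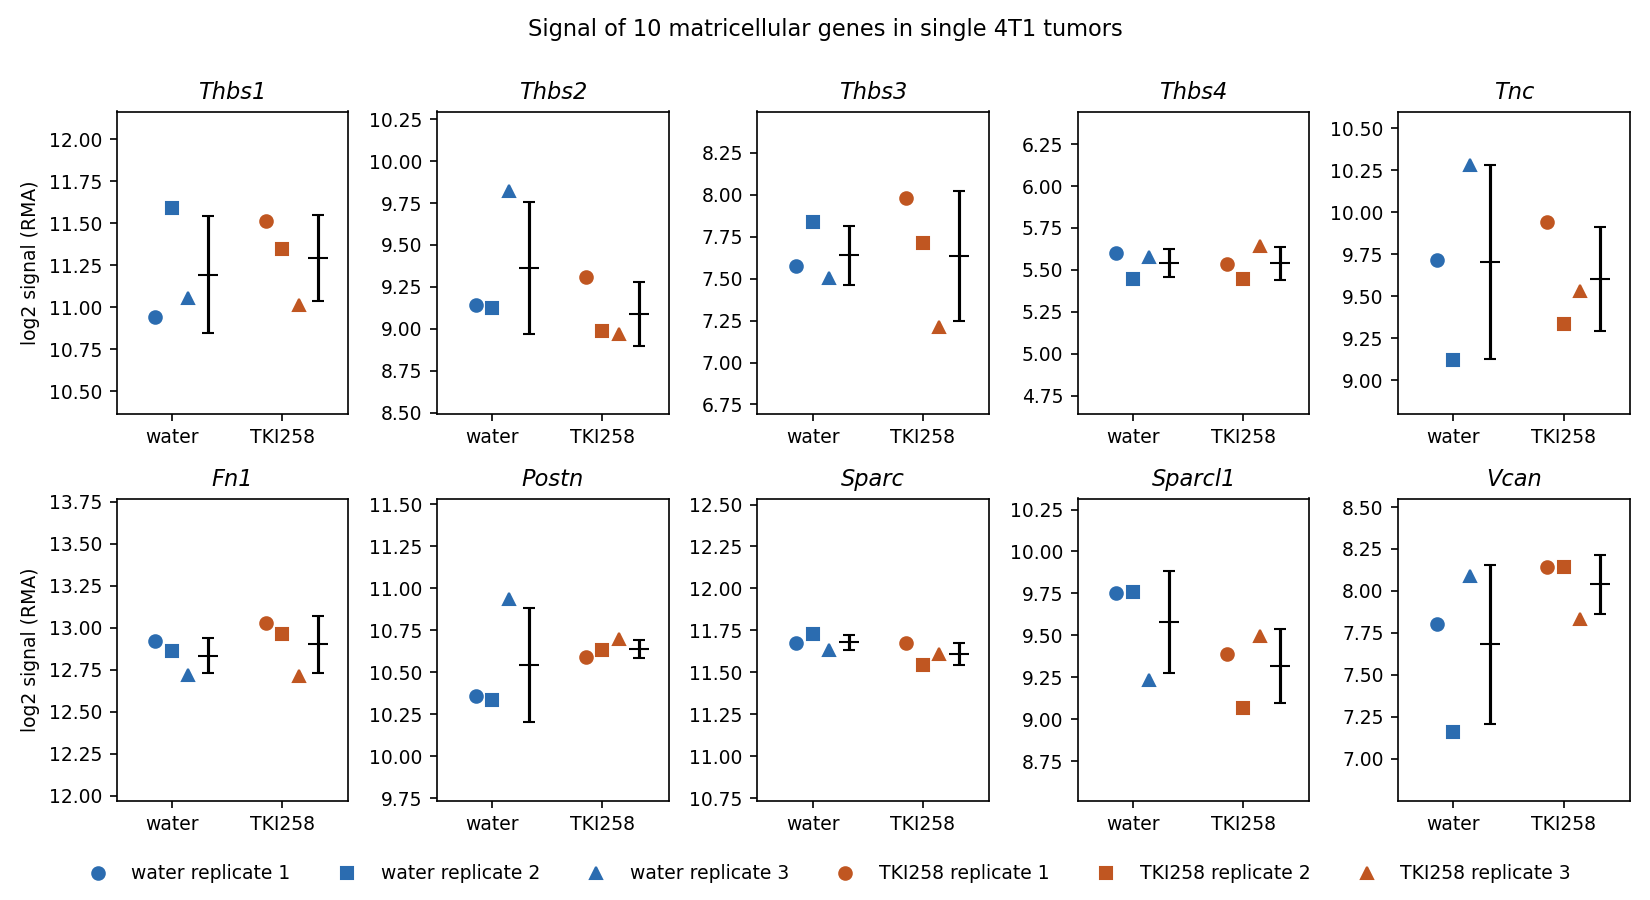
Log2 signal (y axis) of each of the 10 genes in the 3 water and the 3 TKI258 tumors, 1 point per tumor with the replicate shown by its shape; black bars are the group mean ± SD. Each panel spans the same log2 width. The groups overlap in every panel. Water replicate 3 is the highest tumor for Thbs2, Tnc and Postn, and water replicate 2 for Thbs1, Sparc and Sparcl1.

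The values of several genes moved when single tumors were left out. Without water replicate 3 the remaining tumors did not overlap for 3 of the 10 genes (Postn and Vcan higher, Sparcl1 lower), against 24.0% of all genes under the same omission. These 3 then had an unadjusted limma p under 0.05, as did 4.80% of all genes under this omission, and the same adjusted limma p, 0.798. That unadjusted level was reached by 0 of 10 without water replicate 1, water replicate 2, TKI258 replicate 1, TKI258 replicate 2 or TKI258 replicate 3, against 6.95%, 4.97%, 5.80%, 6.26% and 6.82% of all genes. With TKI258 replicate 1 left out, Thbs2 and Sparc did not overlap and were lower, 2 of 10 against 25.4% of all genes. With TKI258 replicate 3 left out, Fn1 and Vcan did not overlap and were higher, 2 of 10 against 26.5%. With water replicate 1, water replicate 2 or TKI258 replicate 2 left out the count stayed at 0, against 27.8%, 22.8% and 26.1% of all genes. Without both water replicate 1 and TKI258 replicate 3 it was 2 of 10 against 40.9%, and without both water replicates 2 and 3 it was 4 of 10 against 42.2%. Each of these counts was at or below the share of all genes, except that of water replicate 3.

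The spread between tumors of the same group was large for most of the 10 genes. The median SD within groups was 0.28, against 0.13 over all genes. Tnc varied more than 96.7% of the genes with a mean signal of at least 7, Vcan more than 93.8%, Thbs2 more than 91.5%, Thbs1 more than 91.3% and Thbs3 more than 91.0%. Fn1 was near the middle (52.9%). Several genes shared their highest and lowest tumors, but within 1 group only. Among water tumors Thbs2, Tnc, Postn and Vcan were all highest in replicate 3 and lowest in replicate 2. Replicates 1 and 2 were close for Thbs2 (9.14 and 9.13) and Postn (10.36 and 10.34). Among TKI258 tumors Thbs2 and Tnc were highest in replicate 1, Postn in replicate 3 and Vcan in replicate 2. Thbs1 and Thbs3 had replicate 2 as their highest water tumor. Among TKI258 tumors Thbs1, Thbs3 and Fn1 were all highest in replicate 1 and lowest in replicate 3. In water, Fn1 was highest in replicate 1. These groupings were made after the values were seen and were not tested.

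**Figure D3:**
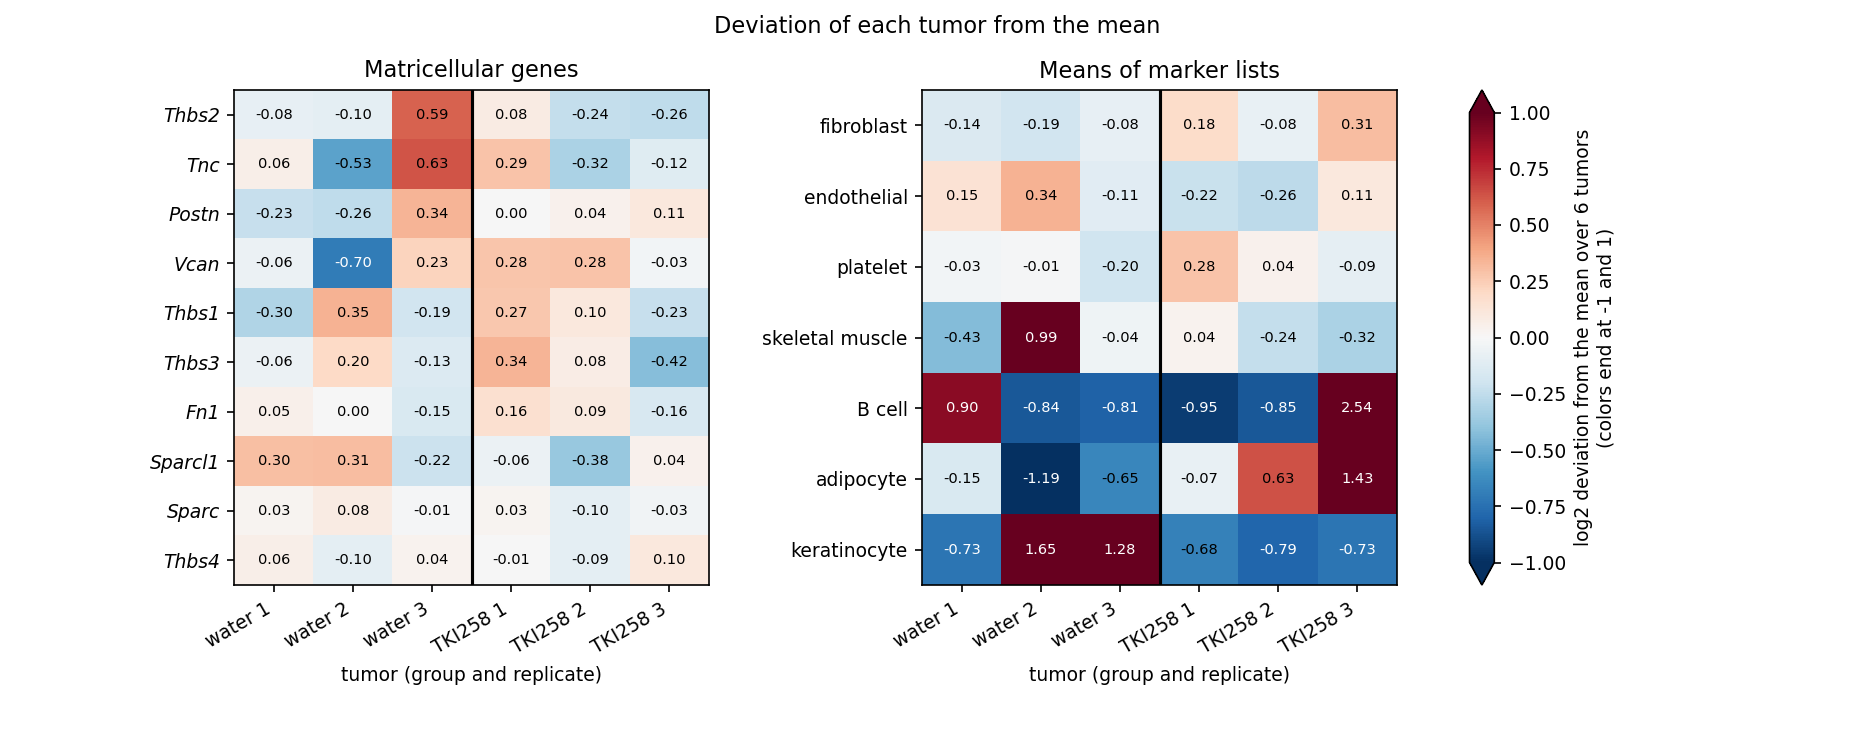
Log2 deviation of each tumor (columns) from the mean over all 6 tumors, for the 10 genes on the left and for the mean signal of 7 lists of cell type markers on the right. Red is above and blue below the mean, colors end at -1 and 1, and the black line parts water from TKI258 tumors. Tnc is at 0.63 in water replicate 3 and at -0.53 in water replicate 2, while the B cell markers reach 2.54 in TKI258 replicate 3.

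Markers of other cell types also varied between these tumors. The epithelial keratin genes Krt8 and Krt18, which mark the epithelial tumor cells, were high in all 6 (11.55 to 11.88 and 11.13 to 11.70). Krt18 was lower in every TKI258 tumor than in any water tumor (difference -0.32, limma adjusted p 0.581). Of the 8 tumor epithelium markers, 6 had a higher and 2, Krt8 and Krt18, a lower mean in TKI258 tumors. Krt7 (0.88) and Cldn3 (0.65) were higher without overlap, and the 8 genes averaged 8.36 in the water group against 8.65 in the TKI258 group, with 0 of 8 past limma's adjusted test. The mean of 10 fibroblast markers ranged from 8.54 to 8.65 in water and from 8.66 to 9.04 in TKI258 tumors, with 0 of 10 past limma's adjusted test. The list mean was 8.59, 8.54 and 8.65 in water replicates 1, 2 and 3, but its genes differed. In water replicate 3, Mfap5 had its highest value of the 6 tumors (9.61) and Pdgfra its lowest (9.31). Both were chosen after their values were seen. Of the fibrillar collagen genes, Col1a1 (chosen after its values were seen) stood at 11.37, 10.70 and 11.67 in water and at 11.63, 11.51 and 11.64 in TKI258 tumors. It was highest in water replicate 3 and lowest in water replicate 2, as were Tnc and Postn. Col1a2, also chosen after its values were seen, did the same (11.46 and 10.56). Col3a1 was lowest in water replicate 2 (10.16) but highest in TKI258 replicate 3 (11.25), with water replicate 3 at 10.94, below every TKI258 tumor. Vcan was also lowest in water replicate 2. The mean of 10 skeletal muscle markers was highest in water replicate 2 (7.19, against 5.77 to 6.24 in the other 5 tumors). Thbs4 stood at 5.44 there, but its signal lay below the median of every array, which limits what it can show. The mean of 10 endothelial markers ranged from 7.72 to 8.18 in water and from 7.57 to 7.94 in TKI258 tumors. Its 3 highest tumors, water replicates 2 and 1 and TKI258 replicate 3, were the 3 highest for Sparcl1 as well. Of its genes, Pecam1, Cdh5, Kdr, Cldn5 and Robo4 had the same 3 highest tumors, and Tek, Emcn, Cd93, Eng and Vwf did not. Cd93 was lowest in TKI258 replicate 3 (8.56), and Vwf was highest in the 3 TKI258 tumors. The mean of 6 platelet markers was highest in TKI258 replicates 1 and 2 and water replicate 2 (7.00, 6.76 and 6.71). These were also the 3 highest tumors for Thbs1, a protein that platelets store and release. Of the platelet genes, Pf4 had the same 3 highest tumors, and Ppbp, Itga2b, Gp9, Treml1 and Tubb1 did not. Itga2b, Gp9 and Tubb1 were highest in TKI258 replicate 3, and Itga2b and Treml1 were lowest in water replicate 2. Water replicate 1 was close on the platelet markers (6.69) but was the lowest tumor for Thbs1 (10.94).

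TKI258 replicate 3 and water replicate 1 held the most B cell signal (list means 8.46 and 6.82, against 4.97 to 5.10 in the other 4 tumors). They were also the 2 lowest tumors for Thbs1, whose difference was 0.11 with both left out. The mean of the adipocyte markers lay between 6.15 and 7.18 in water and between 7.26 and 8.77 in TKI258 tumors, and keratinocyte markers were high in water replicates 2 and 3 (7.41 and 7.05, against 4.97 to 5.08 in the other 4). The list means of mural, macrophage and neutrophil markers differed by -0.13, -0.30 and -0.72 (TKI258 minus water), with a lower mean in TKI258 tumors for 6 of 9, 10 of 10 and 9 of 9 genes. In the 11 marker lists 0 genes passed limma's adjusted test. With water replicates 2 and 3 both left out, Vcan differed by 0.24 and Tnc by -0.11. The part of these cell types in the values of the 10 genes was not tested.

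Other matricellular genes did not pass the test either. Of 22 listed, 21 were measured, 0 passed limma's adjusted test (0.00% of all probe sets did), 11 had a higher and 10 a lower mean, and the median difference was 0.04. An unadjusted limma p under 0.05 was reached by 1 gene, Spock2 (testican 2, a proteoglycan of the SPARC family), which was higher in TKI258 tumors; among all genes 3.79% were higher and 3.35% lower at that level. Spock2 stood at 5.74, 5.77 and 5.65 in water and at 5.85, 5.98 and 6.14 in TKI258 tumors, with no overlap but below the array medians (difference 0.27 ± 0.10, limma adjusted p 0.610). The tenascin genes Tnr and Tnxb differed by 0.26 and 0.62, and the galectin 3 gene Lgals3 by -0.27. The differences of Ccn6 (-0.11) and Spock3 (-0.06) were smaller. Ccn2, the connective tissue growth factor gene, was chosen after its values were seen. Like Thbs2, Tnc and Postn it was highest in water replicate 3 (9.85, against 8.72 to 9.40 in the other 5 tumors), and its group difference was -0.13.

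Receptors of matricellular proteins included Itga9, which had the smallest p of the 3 lists of related genes, although 0 of 17 passed limma's adjusted test. The median difference was -0.08. At an unadjusted limma p under 0.05, 2 genes were higher and 2 lower, against 3.79% and 3.35% of all genes. The TKI258 tumors were all above the water tumors for 2 of the 17 (8.66% of all genes) and all below for 1 (6.49%). Itga9 encodes the integrin alpha 9 chain, which binds tenascin C. It stood at 7.71, 8.09 and 7.72 in water and at 7.15, 7.37 and 7.20 in TKI258 tumors. Every TKI258 tumor was below every water tumor, with a difference of -0.60 ± 0.13 and a limma adjusted p of 0.517. Itgb3, the integrin beta 3 chain that pairs with alpha V to bind fibronectin and other ligands, stood at 8.57, 8.43 and 8.29 in water and at 8.33, 7.95 and 7.97 in TKI258 tumors. The groups overlapped by TKI258 replicate 1 (difference -0.35 ± 0.14, limma adjusted p 0.614).

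Cd36, a receptor of thrombospondin 1 that adipocytes, vessels and macrophages also use for fatty acid uptake, stood at 8.49, 7.97 and 8.36 in water and at 8.57, 9.26 and 10.37 in TKI258 tumors. It was higher in every TKI258 tumor, by 1.13 ± 0.43, with a limma adjusted p of 0.608. The adipocyte list mean ran in the same order in the TKI258 tumors (7.26, 7.97 and 8.77); its part in the Cd36 value was not tested. Itgb6, an epithelial integrin chain that binds fibronectin and latent TGF-beta, was low in all tumors and higher in every TKI258 tumor (4.46 to 4.65, against 4.19 to 4.22 in water; difference 0.32 ± 0.09, limma adjusted p 0.569). The endocytic receptor gene Lrp1 and the syndecan gene Sdc1 differed by 0.24 and -0.27. Cd47, the other thrombospondin receptor and chosen after its values were seen, stood between 11.32 and 11.46 in all 6 tumors, with a difference of 0.00.

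Among 19 genes of matrix partners and processing enzymes, 0 passed limma's adjusted test and the median difference was 0.25. At an unadjusted limma p under 0.05, 3 were higher and 0 lower, against 3.79% and 3.35% of all genes. In 4 genes every TKI258 tumor was above every water tumor, against 8.66% of all genes. Adamts5, a protease that cleaves versican, stood at 6.76, 5.56 and 6.21 in water and at 6.94, 6.93 and 7.38 in TKI258 tumors (difference 0.91 ± 0.30, limma adjusted p 0.580). The growth factor gene Tgfb2 stood at 5.92, 5.68 and 5.93 in water and at 6.56, 6.21 and 6.25 in TKI258 tumors (difference 0.50 ± 0.13, limma adjusted p 0.567). Col3a1, a fibrillar collagen gene, differed by 0.51 ± 0.20 (limma adjusted p 0.614). The versican-cleaving proteases Adamts4 and Adamts1 differed the other way, by -0.38 and -0.20, as did Bmp1 (-0.21), a protease that matures collagens. No gene of the 3 lists passed, so these values stand as descriptions of 6 tumors.

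**Figure D4:**
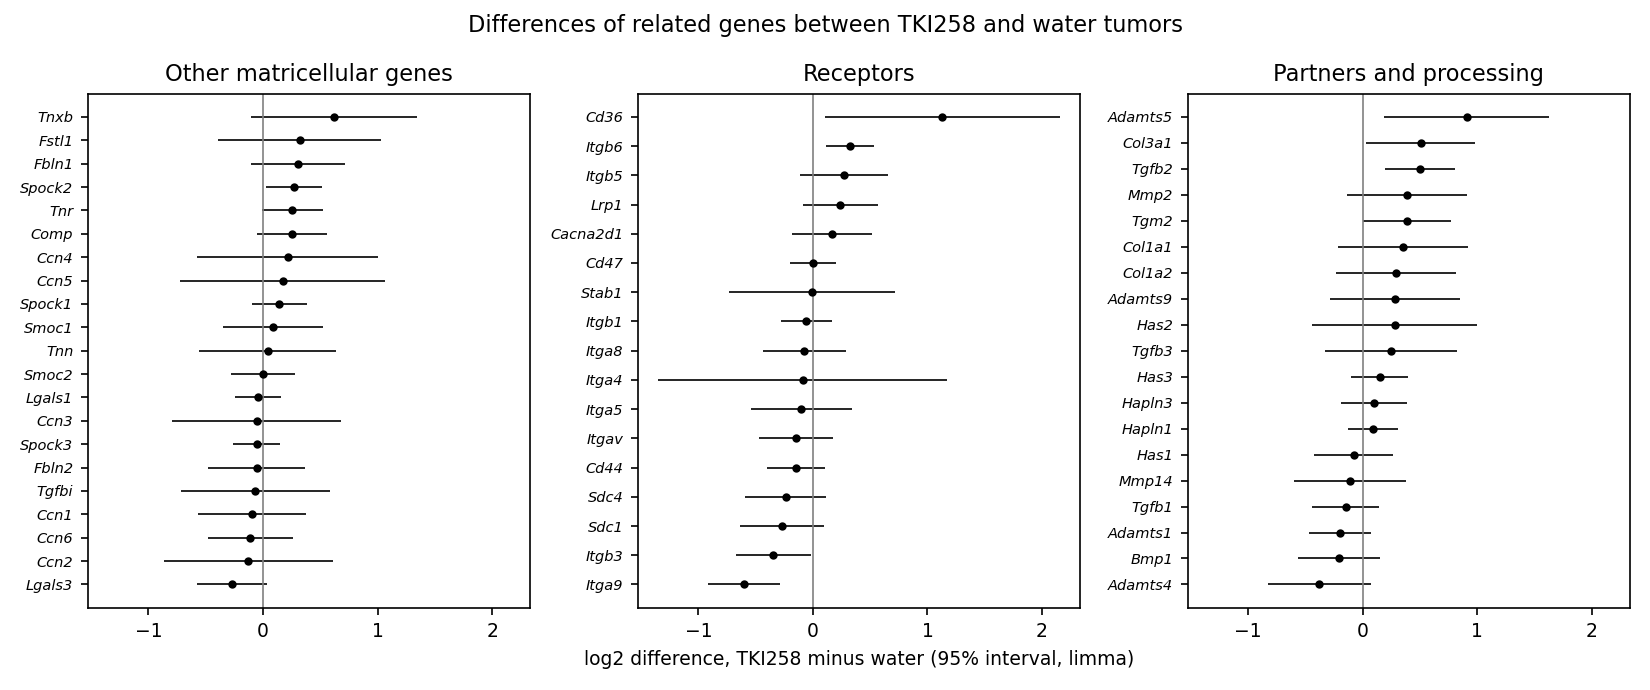
Log2 difference in signal (TKI258 minus water, x axis) with its 95% interval from limma for 21 other matricellular genes, 17 receptors and 19 partners and processing enzymes. Points to the right of 0 are higher with TKI258. Cd36 and Adamts5 lie farthest to the right and Itga9 farthest to the left, and none passed after adjustment.

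Genes with the most similar profile were sought among 9534 genes with a mean signal of at least 7, by Pearson's r over the 6 tumors, as a description. The 2 best genes of each of the 10 had r between 0.97 and 0.99. Each was picked as the highest over all 9534 genes and only 6 tumors, so its size is no finding. They included the basement membrane gene Nid1 for Thbs4 (0.99), the secreted carboxypeptidase-like gene Cpxm1 for Postn (0.97), the phosphatase gene Dusp16 for Thbs1 (0.99) and the nuclear pore gene Nup93 for Thbs2 (0.99).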

How the data were processed

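Values were the log2 signals per probe set that the authors deposited, 1 column per tumor, made with RMA (background correction, normalization between arrays and summary of probes); the submitters' processing notes name RMA, affy and limma, with no versions. The genome build is not given in the sources used here. Of 34760 probe sets, 21640 named 1 gene, 1321 several and 11799 none in the platform annotation; symbols were checked against RefSeq (GRCm38.p6) by Entrez number (21553 matched, 0 changed). For a gene with several probe sets, the brightest on average was used. Array medians were 6.38 to 6.44 and correlations between arrays 0.973 to 0.993; no 2 arrays were identical, and the number of arrays limits the precision. Detection calls were not used here.

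TKI258 was compared with water in limma 3.58.1 (R 4.3.3; lmFit, eBayes, two-sided), with group as the only term, no filter, and Benjamini-Hochberg adjustment over all probe sets (threshold 0.05). The test was tried on simulated data. Alternatives were a low-signal filter, quantile normalization, median centring, a replicate block, single and paired arrays left out, a trend and robust prior, array weights, other probe set choices and a threshold of 0.1. The 10 genes, the lists and the alternatives were chosen with earlier results of these data known. The text names the 10 genes and, of each list of related genes, those that passed or otherwise the 3 with the smallest p in each direction; others are marked as chosen after their values were seen. Genes of similar profile are those with the highest r, 2 per gene, of which 4 are named. Replicate numbers are not said to pair the tumors, and deviations of same-numbered tumors correlated at -0.32, 0.18 and -0.01.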

Additional observations from a re-analysis of the deposited data

How the results depend on the processing

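In none of the 17 alternatives did any of the 10 genes pass limma's adjusted test, and the lowest adjusted limma p was 0.647, against 0.700 with all arrays. Another pseudocount does not apply to log2 values. The direction was the same in every alternative for Thbs2, Sparc, Sparcl1 and Vcan, none of which passed. It turned for the other 6, whose differences were near 0 or rested on single tumors. With single tumors left out the difference ranged from -0.031 to 0.30 for Thbs1, -0.18 to 0.21 for Thbs3, -0.051 to 0.047 for Thbs4, -0.39 to 0.18 for Tnc and -0.0063 to 0.29 for Postn. Quantile normalization gave 0.0035 for Thbs3 and -0.041 for Thbs4, and median centring gave -0.017 for Thbs4. Array weights gave 0.20 for Thbs3 and -0.046 for Thbs4. Without both water replicate 1 and TKI258 replicate 3 the values were 0.18 for Thbs3, -0.021 for Thbs4 and -0.023 for Postn. Without both water replicates 2 and 3, which leaves a lone water tumor assumed to vary like the TKI258 tumors, they were 0.059 for Thbs3, -0.060 for Thbs4 and -0.018 for Fn1.

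The number of the 10 genes whose tumors did not overlap ranged from 0 to 3 with single tumors left out. It was 2 without both water replicate 1 and TKI258 replicate 3 and 4 without both water replicates 2 and 3; fewer tumors overlap less often by construction. Over the whole array 0 probe sets passed; with single tumors left out the count ranged from 0 to 3 (3 without water replicate 1), and it was 1 without both water replicate 1 and TKI258 replicate 3. The median difference over the 10 genes ranged from -0.06 to 0.03 over all alternatives. With the replicate block, 0 of 10 genes passed and the median difference stayed at -0.0020; no call changed. The labels do not say whether same-numbered tumors share more than a number. Signals near the low end, such as those of Thbs4, limit what can be seen of that gene.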
